A study of Caenorhabditis elegans with 39 samples.

Results

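Collagen modifying and crosslinking enzymes turn procollagen chains into insoluble nematode cuticle, and the transcripts of 8 such genes were followed through feeding, starvation and ancestral dauer. They were taken by sequence name from the 44968 counted features, and all 8 were found: dpy-18 (Y47D3B.10), phy-2 (F35G2.4), pdi-2 (C07A12.4), bli-4 (K04F10.4), dpy-31 (R151.5), bli-3 (F56C11.1), mlt-7 (ZK430.8) and tsp-15 (F53B6.1). Membership is a list of names with no threshold on a measured value, but the list was drawn up with earlier results of these data known. All 8 passed the filter on low counts in every comparison. Each symbol matched the sequence name in the Ensembl WBcel235 annotation.

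Polyadenylated RNA was sequenced from whole first-stage (L1) larvae of Caenorhabditis elegans strain N2, the standard laboratory wild type, in 39 libraries. Embryos had been cultured in liquid under control conditions or under conditions that induce the dauer, an arrested larval form, for a short or a long stay, and the worms were then recovered on plates with food. Their F3 descendants were fed for 18 h or starved for 24 h before collection, and the larvae given food were washed more times than those without it. Feeding, hours in culture and washing therefore cannot be told apart. There were 4 fed and 12 starved libraries of control ancestry, 4 and 9 of short-term dauer ancestry, and 3 and 7 of long-term dauer ancestry. Among the long-term dauer libraries, the endings of the names LC3_40d, LC3_49d and LC4_49d were read as days of dauer, so their stays differed. No stay was listed for the other libraries. No group carried a mutation or a transgene, and the generations between the ancestors and the F3 larvae were well fed in all groups.

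The cuticle of nematodes is built largely from small collagens made by the epidermis, and a new cuticle is made before each moult. In the endoplasmic reticulum, prolyl 4-hydroxylase modifies prolines of the collagen repeats, which stabilizes the triple helix. The N-terminal and C-terminal propeptides are then cut off by proteases, and the trimmed collagens are joined outside the cell through bonds between tyrosines, made with hydrogen peroxide from a dual oxidase. In C. elegans, loss of enzymes at these steps gives dumpy, blistered or moulting-defective worms, which is where many of the gene names come from.

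The libraries of batch 1, the only batch with fed larvae, held 20950821 to 30313127 gene counts each (24 libraries), and those of batch 2 held 8836723 to 13740490 (15 libraries). The lowest single count behind any value below was 47, for phy-2, and the highest was 75305, for pdi-2. One library with a starved label, LC4_49d, of long-term dauer ancestry, did not resemble its group: all 8 enzymes lay inside the range of the 11 fed libraries there. Its summed epidermal markers, 1235 CPM, and neuronal markers, 1480 CPM, were also inside the range of fed libraries and far from both remaining batch 1 libraries of its group, at 499.5 to 528.8 CPM and 2188 to 2321 CPM. These values go against its label, and whether the label is right was not tested, so every starved long-term dauer value that includes it is uncertain. A second, starved LC14 of the short-term dauer descendants in batch 1, had 12.6% of its reads outside genes and 33444 features above 0, and was the lowest of all starved libraries for 6 of the 8 enzymes. Summed markers of epidermis, intestine, body wall muscle and neurons were also below every other starved library's range in LC14, and 7 adult yolk and gonad markers summed to 58.5 CPM (counts scaled to a common library size), against 11.8 to 29.2 CPM in the other starved libraries. The part of these differences in the values below was not tested, and results that rest on either library are given with and without it. Both were set apart after the values of these enzymes were seen, so the p-values without them are descriptive. The muscle marker hlh-1 was listed at 0 in every library.

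**Figure D1:**
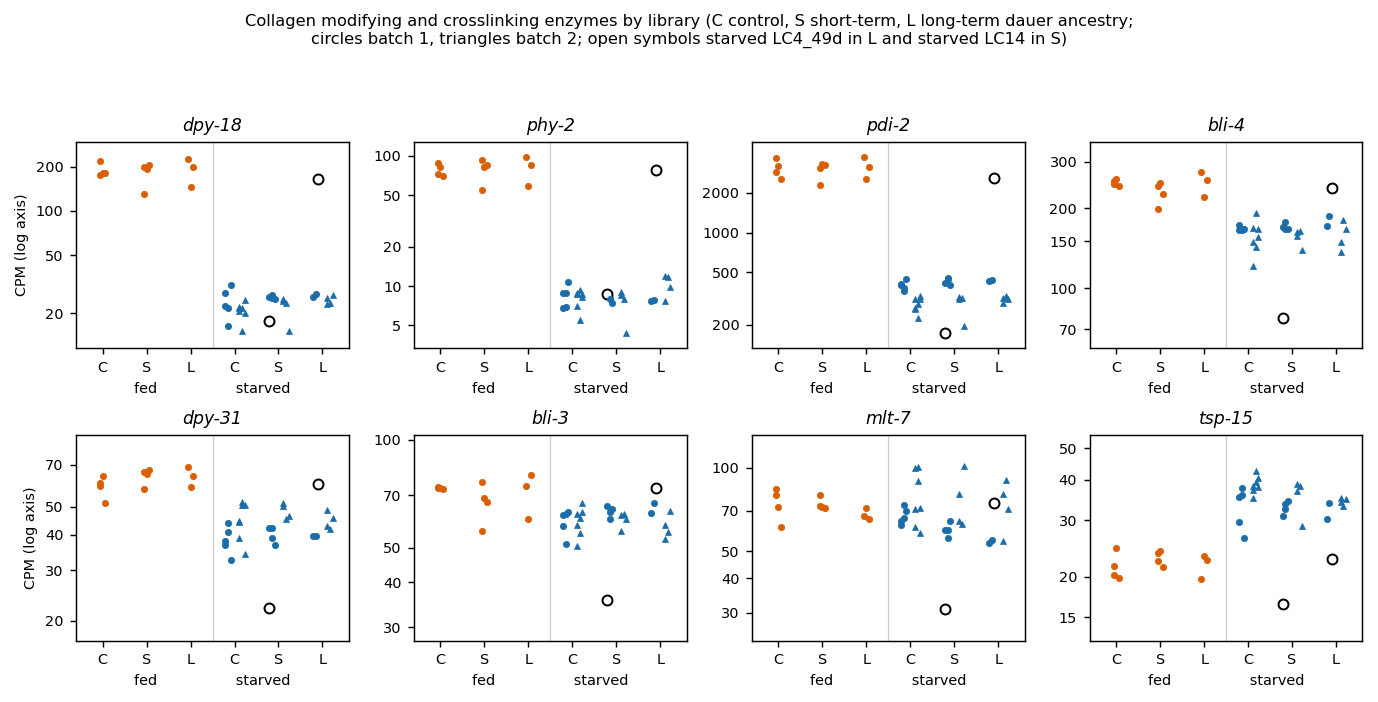
Scaled counts (CPM, log axis) of the 8 enzymes in each of the 39 libraries, grouped by feeding and ancestry, with batch 1 as circles, batch 2 as triangles and LC4_49d and LC14 as open symbols. The 3 prolyl 4-hydroxylase subunits form separate fed and starved bands with LC4_49d among the fed values, while the other 5 genes differ far less.

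Per kilobase of annotated exon, the order of the levels changed with feeding. In the 11 fed libraries pdi-2 was first at 1615 ± 243 CPM per kilobase (SD), followed by dpy-18 at 102 ± 15.9 and phy-2 at 45.5 ± 7.91. The next 3 lay within their spread of one another, with bli-4 at 32.1 ± 2.68, dpy-31 at 29.8 ± 2.42 and mlt-7 at 28.9 ± 2.68 CPM per kilobase. The tetraspanin gene tsp-15 stood at 19.7 ± 1.52 and the oxidase gene bli-3 was last at 13.6 ± 1.38.

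In 26 starved libraries, leaving out LC4_49d and LC14, pdi-2 was again first at 182 ± 37.1 CPM per kilobase (SD). The prolyl 4-hydroxylase alpha subunits had moved down the order, with dpy-18 at 12.7 ± 2.04, within its spread of bli-3 at 11.6 ± 0.852, and phy-2 last at 4.82 ± 0.938. Between them and pdi-2 came tsp-15 at 31.2 ± 3.41, mlt-7 at 28.2 ± 5.88, bli-4 at 21.5 ± 2.10 and dpy-31 at 20.7 ± 2.62, of which the first 2 and the last 2 were each within their spread. The place of bli-4 depends on the length used: it has 11 annotated coding transcripts, and per kilobase of its longest coding sequence it stood at 85.9 in fed larvae, above phy-2 at 48.9.

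The first comparison asks how feeding changed these transcripts in control descendants. The 3 subunits of prolyl 4-hydroxylase were 7.34 to 8.90 times as high in fed as in starved larvae, both propeptide-removing proteases rose by far less, and the crosslinking genes gave no common direction. In edgeR's quasi-likelihood test with Benjamini-Hochberg adjustment, 5 of the 8 enzymes rose and 1 fell, where 53.7% of the 19406 genes tested changed (28.7% higher and 25.0% lower). The median log2 fold change was 0.52 over the 8 enzymes and -0.15 over all genes.

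Among the hydroxylation enzymes, dpy-18 encodes one of the catalytic alpha subunits. Its levels in fed control libraries were 220.4, 181, 181 and 175 CPM, and those in starved control libraries of the same batch were 22.6, 21.6, 31.3, 27.4 and 16.4 CPM. Every fed library was thus far above every starved one, and dpy-18 rose by 2.93 ± 0.365 on the log2 scale (SE; adjusted p = 6.49e-06, edgeR).

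The other cuticle-associated alpha subunit, phy-2, assembles in C. elegans with DPY-18 and PDI-2 into a mixed enzyme. It read 88.8, 82.1, 69.7 and 73.0 CPM in fed control larvae. In the starved ones it read 6.77, 8.86, 10.7, 8.85 and 6.93 CPM. The groups were far apart, with a rise of 3.15 ± 0.452 (log2, SE; adjusted p = 1.29e-05, edgeR), the largest of the 8.

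The beta subunit is encoded by pdi-2, a protein disulfide isomerase that also acts on other folding proteins. It stood at 3682, 3187, 2555 and 2883 CPM in fed control libraries. The starved libraries held 402, 382, 442, 405 and 364 CPM, again with no overlap. The rise was 2.87 ± 0.367 (log2, SE; adjusted p = 6.63e-06, edgeR). Among all genes tested, 3.46%, 3.12% and 3.60% had a larger log2 fold change than dpy-18, phy-2 and pdi-2.

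Removal of the propeptides is represented by a pair of proteases. The proprotein convertase BLI-4 is a furin-like enzyme that acts on the N-terminal side of procollagens. Its transcript stood at 254, 258, 242 and 246 CPM in fed control larvae and at 174, 165, 167, 165 and 167 CPM in starved ones. The groups did not overlap, and the rise was 0.50 ± 0.151 (log2, SE; adjusted p = 0.00732, edgeR).

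The astacin metalloprotease DPY-31 trims the C-terminal propeptide of the collagen SQT-3. Fed control libraries held 60.7, 64.0, 51.5 and 59.1 CPM of dpy-31, and starved ones 38.1, 40.7, 32.6, 36.8 and 44.0 CPM. Each fed value exceeded each starved value, with a rise of 0.54 ± 0.143 (log2, SE; adjusted p = 0.00303, edgeR). Among all genes, 28.5% had a larger log2 fold change than bli-4 and 27.5% than dpy-31.

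The crosslinking step includes the dual oxidase BLI-3, which makes hydrogen peroxide at the cell surface. Its transcript stood at 74.0, 73.2, 72.7 and 73.6 CPM in fed control larvae and at 57.3, 62.0, 62.9, 61.5 and 51.2 CPM in starved ones. The groups did not overlap, but the log2 difference of 0.25 (95% interval -0.00 to 0.50) missed the threshold (adjusted p = 0.0849, edgeR). Without the short-term dauer library LC14, which enters this fit through the shared estimate of spread, the log2 difference of bli-3 was 0.24 with an adjusted p of 0.0190 (edgeR).

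The peroxidase MLT-7, which uses hydrogen peroxide and is needed for moulting, gave 84.2, 72.4, 61.0 and 79.6 CPM in fed control larvae. Starved control larvae gave 64.2, 65.8, 70, 62.2 and 73.3 CPM. These groups overlapped, and the log2 difference was 0.07 with a 95% interval of -0.22 to 0.37 (adjusted p = 0.680, edgeR).

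The tetraspanin TSP-15, a membrane protein required for BLI-3 to make hydrogen peroxide, was the one enzyme partner with the opposite sign. Fed control libraries held 21.6, 24.5, 19.8 and 20.3 CPM of tsp-15, and starved ones 35.3, 35.9, 26.3, 29.5 and 37.7 CPM. All fed values were below all starved values, and the transcript fell by 0.69 on the log2 scale (SE 0.167; adjusted p = 0.00132, edgeR), which is 1.62-fold lower in fed larvae. Of all genes, 67.4% had a higher log2 fold change.

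Starved control libraries of batch 2, which has no fed larvae to compare with, gave levels on the starved side for the subunits. There dpy-18 stood at 20.9 ± 2.87 CPM, phy-2 at 8.05 ± 1.34 and pdi-2 at 286 ± 36.6 (SD, n = 7). The level of tsp-15 was 38.7 ± 2.38 CPM in batch 2 and 33.0 ± 4.82 CPM in the 5 starved control libraries of batch 1. The peroxidase gene mlt-7 spread widely in batch 2, from 58.4 to 101 CPM.

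In bulk RNA, fewer cells of a type and less RNA per cell cannot be told apart. The 8 epidermal markers, all detected, summed to 1274 to 1466 CPM in fed control libraries and to 471 to 711 CPM in the starved control libraries of batch 1. Of these markers 2 are themselves cuticle collagens, dpy-7 and rol-6. The other 6 summed to 564 to 649 CPM in fed and 466 to 708 CPM in starved control libraries, ranges that overlap. Other tissues also moved without overlap between fed and starved control libraries of batch 1. Neuronal markers were lower in fed larvae, at 1303 to 1504 CPM against 2084 to 2544 CPM, and so were body wall muscle markers, at 7860 to 8236 CPM against 9320 to 18408 CPM. Germ cell markers were higher, at 151.7 to 162.8 CPM against 109.8 to 136.1 CPM. Intestinal markers overlapped, at 2126 to 3223 CPM against 1399.9 to 2743 CPM. The part of tissue makeup in the feeding responses was not tested.

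**Figure D2:**
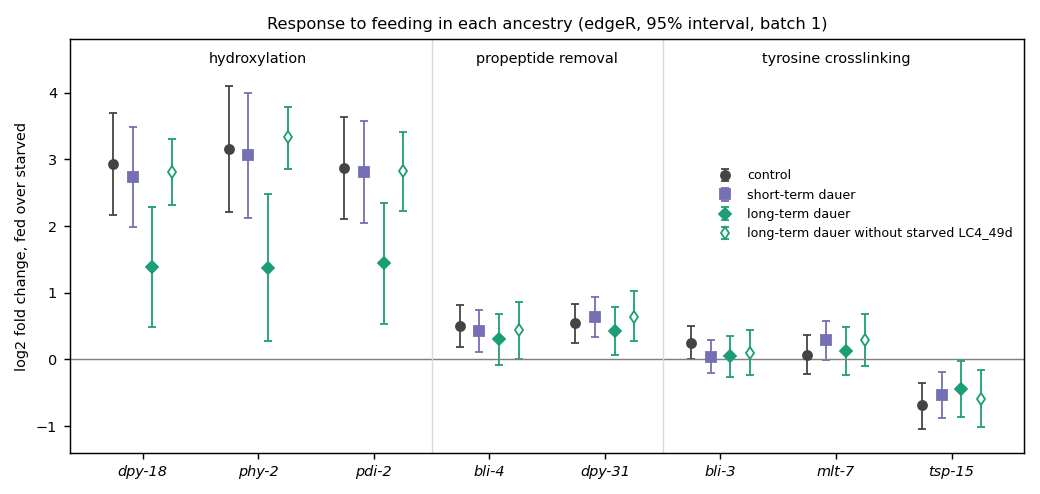
Log2 fold change of each enzyme between fed and starved larvae of batch 1 (edgeR, points with 95% intervals) in control, short-term dauer and long-term dauer descendants, the last with and without starved LC4_49d. The hydroxylation subunits sit near 3 in control and short-term dauer descendants and at 1.37 to 1.44 in long-term dauer descendants unless LC4_49d is left out.

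The same response was measured in descendants of short-term dauers. Again 5 enzymes rose and 1 fell, where 58.3% of all genes changed (28% higher and 30.2% lower), and the median over the 8 was 0.53 against -0.28 over all genes. The median of all genes lay below 0 in both ancestries, so a rise relative to the typical gene was slightly larger than the values given.

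The alpha subunit gene dpy-18 stood at 199.5, 194, 207 and 131.4 CPM in fed short-term dauer descendants and at 25.8, 25.3, 25, 17.7 and 26.6 CPM in starved ones. The gene phy-2 stood at 92.3, 82.1, 85.2 and 54.8 CPM against 8.87, 8.18, 7.47, 8.68 and 8.04 CPM. For pdi-2 the fed values were 3112, 3307, 3269.8 and 2284 CPM, and the starved ones 416, 452, 403, 174 and 448 CPM. No fed value of the 3 subunits came near a starved value, and the fourth fed library, LC14, was the lowest fed value of each.

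The rises were 2.74 ± 0.363 for dpy-18 (adjusted p = 9.25e-06), 3.06 ± 0.450 for phy-2 (adjusted p = 1.98e-05) and 2.81 ± 0.366 for pdi-2 (adjusted p = 9.08e-06; log2, SE, edgeR). Without starved LC14 the log2 fold changes were 2.67, 3.11 and 2.64, and all 3 still passed.

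Of the proteases, bli-4 held 243, 249, 228 and 199.5 CPM in fed short-term dauer descendants. The starved libraries held 171, 178, 167, 77.3 and 166 CPM, where LC14 was less than any other. The rise of 0.43 ± 0.151 (log2, SE; adjusted p = 0.0205, edgeR) became 0.27 without LC14 (adjusted p = 0.0172), a change of the ratio of fed to starved from 1.34 to 1.21. The call of bli-4 was lost without fed LC11 and without fed LC12, at 0.40 in each case (highest adjusted p = 0.0554, edgeR).

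The C-proteinase gene dpy-31 stood at 65.9, 64.8, 67.1 and 57.6 CPM in fed and at 42.3, 38.9, 36.8, 22.2 and 42.1 CPM in starved short-term dauer descendants. It rose by 0.63 ± 0.143 (log2, SE; adjusted p = 0.000783, edgeR) and by 0.52 without LC14 (adjusted p = 0.00123). The groups did not overlap with or without that library.

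For the crosslinking genes, bli-3 ranged from 55.6 to 76.4 CPM in fed and from 35.8 to 65.3 CPM in starved short-term dauer descendants. Its log2 difference was 0.04 with a 95% interval of -0.21 to 0.29, and -0.07 without LC14. The difference of mlt-7 was 0.29 (95% interval -0.01 to 0.58; adjusted p = 0.0858, edgeR) and 0.16 without LC14. Every fed value, 71.9 to 80.0 CPM, was above every starved one of batch 1, 31 to 64.2 CPM, with and without LC14. The difference passed the threshold when any one of starved LC13, long-term starved LC3_40d or long-term fed LC4_49d was left out, at 0.36 to 0.40.

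The gene tsp-15 stood at 23.7, 24.1, 21.4 and 22.4 CPM in fed and at 30.8, 33.7, 34.3, 16.5 and 32.4 CPM in starved short-term dauer descendants. Only the starved value of LC14 lay below the fed ones. The fall was 0.54 on the log2 scale (SE 0.167; adjusted p = 0.00911, edgeR), and without LC14 it fell by 0.67 (adjusted p = 0.000487) with no overlap between the groups.

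Long-term dauer descendants gave a smaller response over the 3 fed and 3 starved libraries of batch 1. Of the 8 enzymes 2 rose, dpy-18 and pdi-2, and none fell, where 12.1% of all genes changed (5.81% higher and 6.33% lower). All 8 enzymes overlapped between the groups, and of all genes 22.3% did not. For every enzyme but bli-3, the overlap came from the single library LC4_49d. The share of all genes for which this holds was not counted.

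In fed long-term dauer descendants dpy-18 stood at 228, 145 and 199.9 CPM, and in starved ones at 25.7 and 27 CPM with 165 CPM in LC4_49d. The fed values of phy-2 were 98.4, 58.2 and 85.2 CPM, and the starved ones 7.67 and 7.86 CPM with 77.3 CPM in LC4_49d. For pdi-2 the fed values were 3752, 2563 and 3125 CPM and the starved ones 431.3 and 434 CPM with 2587 CPM in LC4_49d. In all 3 genes LC4_49d was thus nearer to the fed libraries than to its own group.

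With LC4_49d, the log2 fold changes were 1.39 ± 0.434 for dpy-18 (adjusted p = 0.0435), 1.37 ± 0.531 for phy-2 (adjusted p = 0.0818) and 1.44 ± 0.438 for pdi-2 (adjusted p = 0.0392; SE, edgeR). Without it they were 2.81 ± 0.235, 3.33 ± 0.225 and 2.82 ± 0.289, with adjusted p-values of 2.60e-09, 1.98e-10 and 4.16e-08. LC4_49d was set apart by its values in these same genes, which shapes the fits without it. The p-values without it are therefore descriptive and cannot serve as a test of these genes. The values without LC4_49d also rest on only 2 starved libraries of this ancestry, LC3_40d and LC3_49d. The labels do not explain the shared start of their names, and each was counted as 1 replicate. If they are not independent, these p-values are too small. The call of dpy-18 with LC4_49d was lost in 18 of the 24 fits that left out 1 library, at log2 fold changes of 1.00 to 1.53. That of pdi-2 was lost in 5, each without another long-term dauer library.

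Without LC4_49d, 5 of the 8 enzymes passed, 4 higher and 1 lower, where 38.9% of all genes changed (24.0% higher and 14.9% lower). That library was set apart by its values in these enzymes, so the count is a description. Besides the subunits, dpy-31 rose by 0.64 ± 0.181 (log2, SE; adjusted p = 0.00611, edgeR). Its fed values of 68.7, 58.5 and 63.8 CPM were above both starved values of 39.6 CPM, and LC4_49d held 60.0 CPM. The gene tsp-15 fell by 0.59 (SE 0.208; adjusted p = 0.0267, edgeR), with 19.7, 23.2 and 22.6 CPM in fed and 30.3 and 33.9 CPM in starved larvae, and 22.7 CPM in LC4_49d.

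The convertase gene bli-4 did not pass without LC4_49d, with a log2 difference of 0.44 (95% interval 0.01 to 0.86; adjusted p = 0.101, edgeR). It stood at 274, 221 and 255 CPM in fed and at 171 and 188 CPM in starved larvae, against 238 CPM in LC4_49d. The differences of bli-3 and mlt-7 were 0.10 and 0.29, neither past the threshold. Leaving out LC4_49d and LC14 together gave 6 called enzymes in long-term dauer descendants, against 48.3% of all genes, bli-4 included at 0.42 (adjusted p = 0.00200, edgeR).

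The proportions between enzymes that work together were compared within libraries as ratios of their counts, by two-sided exact permutation tests over batch 1 with adjustment over 15 tests. None passed after adjustment. The counts of dpy-18 were 2.16 to 2.60 times those of phy-2 in the 11 fed libraries, and 2.36 to 3.43 times in 11 starved libraries of batch 1 without LC4_49d and LC14. The ranges overlap, and the difference between fed and starved control libraries was -0.21 on the log2 scale (exact p = 0.143, adjusted p = 0.357). The fed library was lower in all 4 same-name control pairs, by 0.28 on average (paired exact p = 0.125, the smallest that 4 pairs can give). In short-term dauer descendants the difference was -0.31 (exact p = 0.0794, adjusted p = 0.238), and in long-term dauer descendants -0.28 (exact p = 0.4, adjusted p = 0.545). Without LC14 and LC4_49d, respectively, these were -0.44 and -0.51, and every fed library was below every starved one in both.

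Counts of pdi-2 were 10.2 to 12.6 times the sum of both alpha subunits in fed libraries. In the starved libraries of batch 1 without LC4_49d and LC14 they were 10.5 to 15.6 times that sum. In control descendants the log2 difference between fed and starved was -0.14 (exact p = 0.333, adjusted p = 0.5). The fed library was lower in 3 of the 4 same-name control pairs, with a mean difference of -0.06 (paired exact p = 0.5). In batch 2 the same ratio was 7.93 to 11.5, and in LC14 it was 6.60.

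The ratio of tsp-15 to bli-3 had the widest gap. It was 0.266 to 0.404 in the fed libraries, 0.418 to 0.736 in the starved libraries of batch 1 and 0.477 to 0.754 in those of batch 2, while LC4_49d was at 0.309. Every fed library was below every starved library other than LC4_49d. The fed library was lower in all 4 same-name control pairs, by 0.82 on average on the log2 scale (paired exact p = 0.125). In control descendants the log2 difference was -0.92 and in short-term dauer descendants -0.56, each with an exact p of 0.0159 and an adjusted p of 0.119. With 3 against 3 libraries, the long-term dauer comparison cannot give an exact p below 0.1, and it gave -0.47 with a p of 0.200.

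The ratio of dpy-31 to bli-4 was 0.213 to 0.295 in fed libraries. In the starved libraries of batch 1 without LC4_49d and LC14 the ratio was 0.195 to 0.263, and in LC14 it was 0.288. That of mlt-7 to bli-3 was 0.825 to 1.44 in fed libraries, with a maximum of 1.43 in starved libraries of batch 1 and of 1.83 in batch 2. In control descendants the groups overlapped for both ratios. For dpy-31 to bli-4 the difference was 0.19 in short-term dauer descendants (exact p = 0.0794, adjusted p = 0.238) and 0.14 in long-term dauer descendants (exact p = 0.3, adjusted p = 0.5). Without LC14 and LC4_49d, respectively, it was 0.25 and 0.21, with every fed library above every starved one. For mlt-7 to bli-3 it was 0.26 in short-term dauer descendants (exact p = 0.0317, adjusted p = 0.159) and -0.18 in control descendants.

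**Figure D3:**
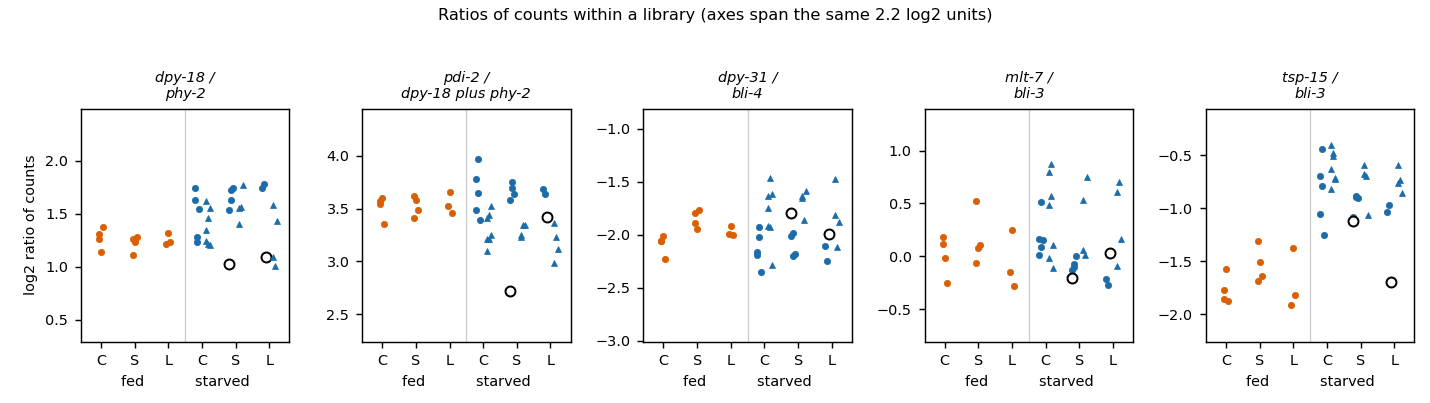
Log2 ratios of counts between enzymes within each library, by feeding and ancestry, on axes of equal span, with batch 1 as circles, batch 2 as triangles and LC4_49d and LC14 as open symbols. The ratio of tsp-15 to bli-3 separates fed from starved libraries except for LC4_49d, and the other 4 ratios overlap.

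The question of whether a dauer in the ancestors altered these transcripts was tested in 8 comparisons: 2 of the feeding response against that of controls, 3 among starved larvae in fits that adjust for batch, and 3 among fed larvae. No enzyme passed in any of them in edgeR, where 0.0% of all genes passed in each, and no enzyme passed in DESeq2. Over all genes in DESeq2, 20 of 36281 passed in the long-term feeding response and 0 in the short-term one. Among starved larvae 1 of 36414 passed for long-term dauer against control, 4 against short-term dauer and 0 for short-term dauer against control. Among fed larvae 8, 14 and 13 of 31985 passed for short-term against control, long-term against control and long-term against short-term. At an unadjusted p under 0.05, 3 enzymes, dpy-18, phy-2 and pdi-2, met the threshold in edgeR in each of the 3 comparisons of long-term dauer descendants that include LC4_49d, and 0 in the other 5. Over all genes that share was 8.96%, 13% and 10.2% in those 3 comparisons, in the order response, against control and against short-term dauer. In the other 5 it was 2.26% for the short-term response, 1.47% for short-term starved larvae, and among fed larvae 5.12% for short-term dauer against control, 4.38% for long-term dauer against control and 2.55% between both dauer ancestries.

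Among fed larvae, where neither outlying library enters, the log2 differences of the 8 enzymes from control were -0.18 to 0.08 in short-term and -0.12 to 0.11 in long-term dauer descendants. The widest 95% limits were -0.41 and 0.30 for the former and -0.36 and 0.40 for the latter. The smallest adjusted p-values were 0.881 and 0.932 (edgeR).

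Among starved larvae, the differences between short-term dauer and control descendants were -0.12 to 0.06, with 95% limits from -0.65 to 0.55. Leaving out both outlying libraries gave -0.08 to 0.10 with limits from -0.32 to 0.31. Within batch 1 the differences of dpy-18, phy-2 and pdi-2 were 0.07, 0.05 and -0.04, and within batch 2 they were 0.09, -0.08 and 0.03.

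In starved long-term dauer descendants, the subunits differed from control by 0.85 for dpy-18, 1.03 for phy-2 and 0.75 for pdi-2 on the log2 scale (adjusted p = 0.269 for the smallest, edgeR). Within batch 1, which holds LC4_49d, the values were 1.49, 1.75 and 1.41. Within batch 2 they were 0.25, 0.36 and 0.16. Over both batches without LC4_49d they were 0.21, 0.20 and 0.14, and the 95% limits over all 8 enzymes without both outlying libraries ran from -0.40 to 0.47. Between long-term and short-term dauer descendants those limits ran from -0.34 to 0.56.

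The feeding response of long-term dauer descendants minus that of controls was -1.54 for dpy-18, -1.78 for phy-2 and -1.43 for pdi-2 (log2; smallest adjusted p = 0.478, edgeR). Without LC4_49d these differences were -0.13, 0.16 and -0.07. For short-term dauer descendants the 8 differences were -0.21 to 0.22, and the 95% limits, from -1.37 to 1.18, allow sizable changes in either direction. Without both outlying libraries those limits were -0.68 and 0.39.

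**Figure D4:**
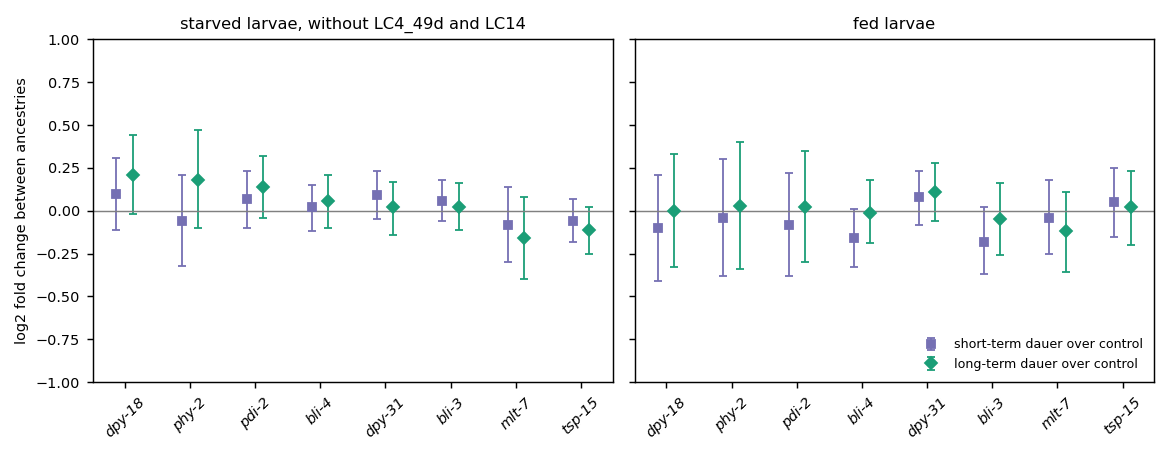
Log2 fold change of each enzyme in either dauer ancestry over control (edgeR, points with 95% intervals) among starved larvae without LC4_49d and LC14, on the left, and among fed larvae, on the right. All intervals lie between -0.41 and 0.47, and no enzyme passed the adjusted threshold.

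In fed libraries, the 3 subunits varied together from library to library. Over the 11 fed libraries, which include 3 ancestries, Pearson's r of log2 CPM was 0.961 between dpy-18 and phy-2 (permutation p = 2e-05, adjusted p = 0.00168 over 84 relations). Spearman's rho was 0.927 (permutation p = 0.00012, adjusted p = 0.0101). For dpy-18 and pdi-2, r was 0.918 (adjusted permutation p = 0.00196) and rho 0.873 (adjusted p = 0.0263). For phy-2 and pdi-2, r was 0.924 (adjusted permutation p = 0.00196) and rho 0.791 (adjusted p = 0.0757). Over all 11 fed libraries, other members varied with them as well. For bli-4, r was 0.822 with dpy-18, 0.827 with phy-2 and 0.801 with pdi-2 (adjusted permutation p = 0.0185 each). Between bli-4 and bli-3 it was 0.877 (adjusted p = 0.0162). The r of bli-3 with dpy-18 and phy-2, and of dpy-31 with pdi-2, also passed. No rho of these further pairs passed, and no pair with mlt-7 or tsp-15 did.

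Without the 2 libraries farthest from the median on the x axis, the r values of the 3 subunit pairs were 0.854, 0.836 and 0.856. Those of bli-4 were then 0.347 with dpy-18, 0.438 with phy-2, 0.718 with pdi-2 and 0.516 with bli-3. For bli-3 they were 0.059 with dpy-18 and 0.202 with phy-2, and for dpy-31 with pdi-2 the value was 0.63. Most of these further relations thus rest on those libraries. The high end of the range was the fed long-term dauer library LC3_40d, with the most dpy-18, phy-2 and pdi-2 of all, and the low end the fed short-term dauer library LC14. Among 15 starved libraries of batch 2, r was 0.824, 0.821 and 0.805 for the 3 subunit pairs. Without the 2 farthest libraries it was 0.343, 0.183 and 0.215, so that relation rests on those samples. Among 11 starved libraries of batch 1, without LC4_49d and LC14, r was 0.649 for dpy-18 and phy-2 (adjusted permutation p = 0.135), 0.814 for dpy-18 and pdi-2 (adjusted p = 0.0185) and 0.376 for phy-2 and pdi-2 (adjusted p = 0.477). Without the 2 farthest libraries these were 0.210, 0.640 and 0.201.

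In 11 starved libraries of batch 1, without LC4_49d and LC14, dpy-18 and tsp-15 ran against each other. Pearson's r was -0.823 (permutation p = 0.00209, adjusted p = 0.0185) and Spearman's rho -0.873 (permutation p = 0.00094, adjusted p = 0.0263), with r at -0.731 without the 2 farthest libraries. The starved control library LC12 held the most dpy-18 of them, 31.3 CPM, and the least tsp-15, 26.3 CPM. In fed libraries the same pair gave an r of -0.247 (adjusted permutation p = 0.676). In 15 starved libraries of batch 2 it gave an r of 0.239 (adjusted permutation p = 0.596) and a rho of -0.025, so the relation did not recur there. For phy-2 and tsp-15 in the 11 libraries of batch 1, r was -0.768 (adjusted permutation p = 0.0368) and rho -0.591 (adjusted p = 0.243). That r was -0.505 without the 2 farthest libraries, -0.069 in fed libraries and 0.252 in batch 2.

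The genes whose levels followed each enzyme most closely over the 11 fed libraries, out of 8828 compared by Pearson's r of log2 CPM, are given as a description. For dpy-18 they were calu-1, the calumenin gene, at 0.986, and rml-4 at 0.971. For phy-2 they were bus-18 at 0.980 and again calu-1 at 0.979, and for pdi-2 they were ubxn-1 at 0.981 and pdi-3, another protein disulfide isomerase, at 0.979. The points share depth, batch and feeding state.

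For the proteases, bli-4 was most like pyr-1, a pyrimidine synthesis gene, at 0.963, and the cadherin gene cdh-12 at 0.962, and dpy-31 was most like clsp-1 at 0.977 and fntb-1 at 0.976. For bli-3 the nearest were pst-1 at 0.964 and eat-20 at 0.961, and for tsp-15 they were pes-4 at 0.903 and C34B4.3 at 0.900. The peroxidase gene mlt-7 had the loosest likeness, 0.868 with ZC328.3 and 0.814 with K04F10.1.

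Other genes of the same steps were counted over fixed lists in the feeding response of control descendants, where 53.7% of all genes changed (28.7% higher, 25% lower) with a median log2 fold change of -0.15. Of 16 further genes for folding and hydroxylating procollagen, 14 rose, 1 fell and 1 did not pass, with a median log2 fold change of 1.78. The lysyl hydroxylase gene let-268 rose by 3.00 ± 0.481 (log2, SE; adjusted p = 3.57e-05, edgeR), from 6.93 ± 1.76 to 57.8 ± 4.49 CPM (SD, n = 5 and 4). The chaperone gene hsp-4 rose by 2.89 and the cyclophilin gene cyn-6 by 2.72. The gene that fell, phy-3, encodes another alpha subunit and was low, at 2.83 ± 1.65 CPM in starved and 0.225 ± 0.0632 CPM in fed libraries; it was named after its values were seen.

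Of 12 further proteases and protease inhibitors, 8 rose, 1 fell and 3 did not pass, with a median of 1.29. The protease inhibitor gene mlt-11, needed for moulting, rose by 6.05 on the log2 scale, and the astacin genes nas-37 and nas-38, the first of them needed to shed the old cuticle, rose by 6.00 and 5.13. The gene egl-3, a neuropeptide-processing convertase of the same family as bli-4, fell by 1.5 on the log2 scale, from 1453 ± 147 to 542 ± 64.4 CPM (SD, n = 5 and 4).

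Of 10 oxidases, peroxidases and partners of them, 6 rose, 1 fell and 3 did not pass, with a median of 0.74. In short-term dauer descendants 6 rose, 3 fell and 1 did not pass. The share called in control descendants, 7 of 10, is not far from that of all genes. The peroxidase gene skpo-2 rose by 5.03 and the tetraspanin gene tsp-14 by 2.60 (log2). The maturation factor gene of dual oxidase, doxa-1, rose by 1.26, from 8.52 ± 1.41 to 21.4 ± 2.78 CPM (SD, n = 5 and 4), where tsp-15 fell. The gene that fell in this list was memo-1, by 1.27, and the second dual oxidase gene, duox-2, differed by -0.02; duox-2 was named after its values were seen.

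The substrates moved much further than the enzymes. Of 21 cuticle collagen genes, 16 rose and none fell, with a median log2 fold change of 5.78, and 5 did not pass. The genes sqt-2, rol-8 and dpy-9 rose by 8.50, 8.36 and 8.05, the last from 0.673 ± 0.156 to 189 ± 51.3 CPM (SD, n = 5 and 4). The 5 without a call were bli-1, bli-2, bli-6, col-19 and dpy-14, named after their values were seen, of which the first 4 were at or below 1.43 CPM on average in either state.

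Of the 3 basement membrane collagen genes, which need the same hydroxylation but form no cuticle, let-2 rose by 0.71 (adjusted p = 0.00813, edgeR), and emb-9 and cle-1, named as the rest of the list, differed by 0.42 and -0.12 and did not pass. In short-term dauer descendants the medians of the lists in the order given were 1.73, 1.31, 0.45, 6.00 and 0.35 on the log2 scale. In long-term dauer descendants they were 0.98, 0.73, 0.38, 1.75 and 0.45 with LC4_49d and 1.76, 1.67, 0.67, 6.75 and 0.48 without it.

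**Figure D5:**
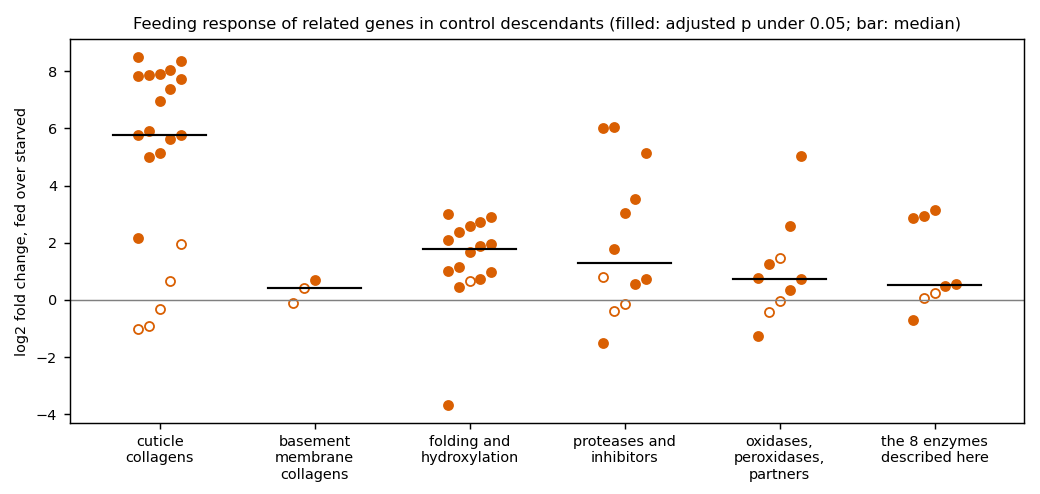
Log2 fold change between fed and starved control descendants (edgeR) for genes of 5 lists and for the 8 enzymes, with filled points at an adjusted p under 0.05 and bars at the median of each list. Cuticle collagens have a median of 5.78, the folding and hydroxylation genes 1.78 and the 8 enzymes 0.52.

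Some reads cannot be assigned with certainty because the libraries do not keep the strand. In the WBcel235 annotation, 5.07% of the exons of tsp-15 overlap those of madd-4, 4.81% of dpy-31 and 0.948% of pdi-2 overlap noncoding RNA genes, 2.87% of bli-4 overlap mut-2 and K04F10.8, and 2.39% of bli-3 overlap F53G12.18. No exon of dpy-18, phy-2 or mlt-7 overlapped another gene.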

How the data were processed

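Read counts per gene were deposited, 1 table per library, with 5 summary rows that entered neither the library sizes nor any test (not aligned, 14.4% to 19% of reads; outside genes, 1.75% to 12.6%; ambiguous, 2.7% to 4.2%). The submitters' processing notes name Bowtie 1.1.2, HTSeq and edgeR; the genome build and annotation are not given in the sources used here, so no coordinates are printed. Symbols, exon lengths and overlaps came from the Ensembl WBcel235 annotation, which matched 44443 of 44968 features.

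These deposited counts entered edgeR 4.0.16 under R 4.3.3 (TMM, filterByExpr by group, robust quasi-likelihood F test, Benjamini-Hochberg adjustment over all genes tested, threshold 0.05), tested beforehand on simulated data. There, 200 genes were changed by 1.5 on the log2 scale. The fit of feeding in control descendants recovered 57% of them, with 2.56% false calls. For short-term dauer against control, the starved fit recovered 91% with 2.15% false calls, and the fed fit 77% with 6.67%. Feeding was fitted on the 24 libraries of batch 1 with 1 coefficient per group, ancestry among starved larvae on 28 libraries with batch as a term, and among fed larvae on 11. CPM values use TMM factors. Ratios added 0.5 to each count. Correlations used 100000 permutations in Python 3.11.15 with SciPy 1.17.1. Alternatives were DESeq2 1.42.0, its size factors in edgeR, no filter, a block for the replicate name, all 39 libraries, and leaving out each library.

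The labels call the replicates biological; the 138 pairs within groups differed by more than sampling noise (lowest chi-square per degree of freedom 4.03). Deviations from group means of fed and starved control libraries of the same name correlated at 0.307, 0.179, 0.434 and 0.353. Libraries of different names were not compared in this way, so whether the names pair the samples was not tested. Beside the 8 enzymes, the genes named are the 3 in each direction of each list with the largest log2 fold change among those that passed in control descendants with a mean of at least 10 CPM, and the 2 genes most alike to each enzyme. The genes phy-3, duox-2, emb-9, cle-1 and the 5 collagens without a call fall outside this rule and were named after their values were seen. The enzymes, lists and markers were chosen with earlier results of these data known.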

Additional observations from a re-analysis of the deposited data

Results flagged for a closer look

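Of 52 groups of values examined for a library far from the rest, 17 held one, where chance gives about 2.6. In 4 of these the starved long-term dauer library LC4_49d stood out, with 165 CPM of dpy-18, 77.3 of phy-2, 2587 of pdi-2 and 22.7 of tsp-15, and its ratio of tsp-15 to bli-3, 0.309, stood out as well. Each of these values lies inside the range of the fed libraries.

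The starved short-term dauer library LC14 of batch 1 was far below its group in 5 enzymes, with 77.3 CPM of bli-4, 22.2 of dpy-31, 35.8 of bli-3, 31 of mlt-7 and 16.5 of tsp-15. Its ratios of dpy-18 to phy-2, 2.04, and of pdi-2 to both alpha subunits, 6.60, were also the lowest of its group by a wide gap.

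In fed short-term dauer descendants a library with the same name, LC14, was the lowest in dpy-18 at 131.4 CPM and in pdi-2 at 2284 CPM, and the highest in mlt-7 at 80.0 CPM. Fed control library LC10 was above the other 3 in dpy-18, at 220.4 CPM. Starved short-term dauer library 14 of batch 2 was the lowest in phy-2, at 4.37 CPM. The causes were not tested.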

How the results depend on the processing

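With 6 enzymes called in each, the feeding responses of control and short-term dauer descendants gave 6 to 7 and 5 to 7 under the alternatives, and the 8 comparisons of ancestry gave 0 under each. In long-term dauer descendants, 2 enzymes were called; the count was 1 without the filter on low counts, 4 with a replicate block, 6 with all 39 libraries and 6 without LC4_49d and LC14, a choice made after seeing the data. It ranged from 0 to 5 when 1 library was left out in turn. Over all genes the calls in long-term dauer descendants moved as well. They were 2356 of 19406 (12.1%) in the main fit and 4869 of 19406 with the replicate block. Without both libraries they were 9368 of 19413 (48.3%). In the main fits of control and short-term dauer descendants 53.7% and 58.3% of all genes were called.

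The replicate block called the same 6 enzymes as without it in control and short-term dauer larvae, and added phy-2 and dpy-31 in long-term dauer descendants. In both dauer ancestries the same names correlated from -0.115 to 0.384, a range that overlaps the values of control descendants. Without a comparison of different names, whether the names pair the samples was not tested. Some values changed sign. For bli-3 in short-term dauer descendants the log2 difference of 0.04 was -0.0019 with median-ratio size factors, -0.06 without LC4_49d and LC14, and -0.07 to 0.15 when 1 library was left out. The difference in feeding response of phy-2 in long-term dauer descendants became 0.16 without LC4_49d, and 0.16 without both libraries (range with 1 library left out, -2.25 to 0.16). The log2 difference between fed and starved larvae in the ratio of pdi-2 to both alpha subunits ranged from -0.14 to 0.12 in short-term and from -0.12 to 0.02 in long-term dauer descendants when 1 library was left out, that of dpy-31 to bli-4 in control descendants from -0.02 to 0.09, and that of mlt-7 to bli-3 in long-term dauer descendants from -0.06 to 0.20. The cause was not tested. Of the values recomputed for comparisons and ratios, 348 kept their direction and call, 23 moved and 5 changed sign. The lowest count of phy-2, 47, limits the precision of its starved levels.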
